A study of Mus musculus with 40 samples.

Results

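The genes described here are 10 core and output genes of the circadian clock: Arntl, Clock, Npas2, Per1, Per2, Per3, Cry1, Nr1d1, Nr1d2 and Dbp. They were taken by name as a list, and each matched 1 gene among the 28467 of the bulk table and 1 among the 32285 of the nucleus table. The samples were right kidneys of male C57BL/6 mice, aged 8 to 12 weeks, after removal of the left kidney (unilateral nephrectomy, UNx) or after a sham operation that left both kidneys in place. Bulk RNA-seq covered 36 kidneys in 6 groups of 6, sham or UNx, taken 24, 48 or 72 h after the operation. Nuclei of 2 sham and 2 UNx kidneys taken at 24 h were profiled by single-nucleus RNA-seq. The sources used here do not give the hour of the day at which kidneys were taken, and whether it was the same in sham and UNx was not tested.

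The clock is a feedback loop of transcription that runs in nearly every cell, the kidney's included. ARNTL (also called BMAL1) pairs with CLOCK or its relative NPAS2 and switches on genes that carry an E-box, among them the Per, Cry, Nr1d and Dbp genes. PER and CRY proteins then hold the pair back, and NR1D1 and NR1D2 (REV-ERB alpha and beta) repress Arntl, Clock, Npas2 and Cry1 through elements they share with the ROR activators. DBP acts through D-boxes and is a standard readout of the loop's output. In a running clock Arntl and Npas2 therefore peak at about the opposite time of day from Dbp and the Nr1d genes. In the kidney the clock sets daily rhythms of sodium, potassium and water handling.

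The 3 elements were searched, on both strands, in RefSeq promoter windows of 300 bases (GRCm38.p6, 250 bases before to 50 after the start site), which were found for 9 of the 10 genes and gave 13 windows. The letters searched were CACGTG for the E-box, TTATGNAA for the D-box and ANTAGGTCA for the ROR and REV-ERB element. They occur in 7.15%, 3.38% and 0.661% of 32851 windows of the same length. An E-box was found for Cry1 and Per1, a D-box for Per3 and Per1, and the third element for Arntl. The stretches that hold these letters are shown 5′ to 3′, because they are where the members' own proteins are known to act on other members. Capitals mark the motifs, and positions count from the first transcribed base as 0. Per3 (chr4:151044676-151044915, minus strand, bases −250 to −11) holds TTATGTAA at −205 to −198 and again at −158 to −151. Per1 (chr11:69098699-69098938, plus strand, same span) holds the E-box at −166 to −161 and TTATGCAA at −24 to −17. Cry1 (chr10:85185065-85185304, minus strand, same span) holds the E-box at −60 to −55. Arntl (chr7:113207529-113207557, plus strand) holds AGTAGGTCA at 28 to 36.
Per3: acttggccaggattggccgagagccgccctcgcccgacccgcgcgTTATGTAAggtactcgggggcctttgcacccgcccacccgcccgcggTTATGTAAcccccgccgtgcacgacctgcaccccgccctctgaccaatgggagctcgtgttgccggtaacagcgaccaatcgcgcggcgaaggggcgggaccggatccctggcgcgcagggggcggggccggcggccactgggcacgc
Per1: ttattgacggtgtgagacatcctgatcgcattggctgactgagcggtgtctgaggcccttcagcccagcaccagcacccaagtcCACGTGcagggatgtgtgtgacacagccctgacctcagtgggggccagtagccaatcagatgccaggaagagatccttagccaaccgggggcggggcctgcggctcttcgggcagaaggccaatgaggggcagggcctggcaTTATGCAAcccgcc
Cry1: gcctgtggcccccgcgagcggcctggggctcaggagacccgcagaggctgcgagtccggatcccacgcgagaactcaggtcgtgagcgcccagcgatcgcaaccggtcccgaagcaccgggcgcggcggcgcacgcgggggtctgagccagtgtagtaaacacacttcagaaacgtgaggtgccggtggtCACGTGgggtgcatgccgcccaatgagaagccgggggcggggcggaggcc
Arntl: gaaggcagaaAGTAGGTCAgggacggagg
The windows of Dbp, Clock, Npas2, Nr1d1 and Nr1d2 did not hold these letters, and a match is a description of the sequence only. The sequence for Per2 is not shown.

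All 10 genes are protein-coding in the GENCODE M21 annotation of GRCm38 (mm10, the build of the nucleus data). Per3 (chr4:151003652-151044665) lies within Camta1 on the same strand over 41014 bases, so reads of the 2 genes could be shared between them. On the opposite strand Dbp (chr7:45705088-45710203) overlaps Sphk2 by 737 bases, Nr1d1 (chr11:98767932-98775333) overlaps Thra by 1075 bases and Arntl (chr7:113207465-113314126) overlaps the antisense gene Gm45355 by 2394 bases. Whether the authors' counting used strand is not given in the sources used here, so counts of these 4 genes are uncertain to that extent.

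Bulk values are given as CPM, counts per 1000000 of library size scaled with TMM factors over all 36 libraries, and libraries held 14.9 to 24.1 M estimated counts. CPM is not corrected for gene length, so it is compared between samples and not between genes. The labels place every 24 h library in batch 1 and every later one in batch 2, so time and batch cannot be told apart where 24 h is set against a later time. Libraries differed in 2 further ways. The share of counts from mitochondrially encoded genes was 21.5% to 26.7% in 24 h libraries and 13.6% to 16.1% in 72 h libraries. At 48 h it was 14.0% to 15.5% in sham and 25.8% to 26.4% in UNx replicates 1 to 5, but 15.2% in UNx replicate 6. Its part in the clock results was not tested, beyond that with these genes left out the same 7, 4 and 5 members were called at 24, 48 and 72 h. A profile score built from pseudogenes, scaled so that shams of 48 and 72 h average 0 and shams of 24 h average 1, averaged 0.719 in 24 h UNx, 0.557 in 48 h UNx and 0.053 in 72 h UNx. At 48 h, UNx replicates 1 to 5 had a high score and UNx replicate 6 scored 0.00628, inside the range of its shams, which was −0.0419 to 0.0618. Kidney markers were present in every library, with summed CPM of 3 thick limb genes from 2688 to 5674, and summed CPM of 3 adrenal genes never passed 1.13. Summed CPM of 4 adipocyte genes varied widely between libraries. It ran from 0.148 to 0.890 in 24 h sham and from 0.0448 to 287 in 24 h UNx (median 0.105). At 48 h it ran from 0.290 to 200 in sham and 0.105 to 77.6 in UNx, and at 72 h from 0.255 to 53.4 and 0.0425 to 48.9. The part of fat RNA in the clock results was not tested. In whole tissue, a change in the number of cells that express a gene and a change in RNA per cell cannot be told apart.

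The median of Arntl was higher in the remaining kidney than in sham at each time, and the rise passed the test at 24 h and 72 h. Its lowest, median and highest CPM in sham were 2.42, 5.93 and 9.53 at 24 h, 1.63, 3.54 and 12.6 at 48 h, and 2.08, 5.60 and 9.93 at 72 h. In UNx they were 6.86, 10.3 and 13.6 at 24 h, 4.93, 9.96 and 14.5 at 48 h, and 9.80, 16.4 and 24.4 at 72 h. All 6 UNx libraries lay above the sham mean at each time, and the groups overlapped at each time. Arntl rose at 24 h by a log2 fold change of 0.71 (SE 0.245, edgeR adjusted p 0.0421) and at 72 h by 1.45 (SE 0.309, adjusted p 0.0334). The estimate of 1.05 at 48 h had an SE of 0.452 and did not pass (adjusted p 0.0874). The 24 h call was lost in 8 of 12 fits that left out 1 library (sham replicate 1, 4, 5 or 6 or UNx replicate 1, 2, 3 or 4), with estimates of 0.55 to 0.88 over the 12. The 72 h call was also lost in 8 of 12 (sham replicate 2, 3, 4 or 5 or UNx replicate 1, 3, 4 or 5). At 48 h a single sham, replicate 1, held 12.6 CPM, more than any other sham. The 48 h estimate was 1.61 without it (adjusted p 0.00771) and 1.22 without UNx replicate 6 (adjusted p 0.0498), and it did not pass in the other 10 fits.

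Clock, the partner of Arntl, rose by less and with little spread. Its sham median was 56.5 CPM at 24 h and 53.3 CPM at 72 h, against 70.8 and 71.4 CPM in UNx. At 72 h the highest sham (61.4 CPM) and the lowest UNx library (61.1 CPM) overlapped only there, and all other UNx libraries lay above all shams. The log2 fold change was 0.28 at 24 h (SE 0.0687, edgeR adjusted p 0.00705) and 0.36 at 72 h (SE 0.0620, adjusted p 0.0120). At 48 h, with medians of 55.1 CPM in sham and 58.1 CPM in UNx, it was 0.09 (adjusted p 0.440). Npas2, which can replace Clock in the pair, passed at 48 h alone, and its effect was not called as different between any 2 times. It ran from 0.763 to 8.50 CPM in sham and 2.69 to 6.54 CPM in UNx at 24 h, with full overlap and a log2 fold change of 0.11 (adjusted p 0.855). At 48 h it rose from a median of 2.00 CPM in sham to 7.60 CPM in UNx, with an estimate of 1.51 on the log2 scale (SE 0.484, adjusted p 0.0282). That call was lost in 7 of 12 fits that left out 1 library (sham replicate 2, 3, 5 or 6 or UNx replicate 1, 2 or 5), with estimates of 1.30 to 2.12 over the 12. At 72 h the medians were 3.96 and 8.46 CPM, and the log2 fold change of 1.33 (SE 0.326) just missed the threshold in edgeR (adjusted p 0.0563).

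**Figure D1:**
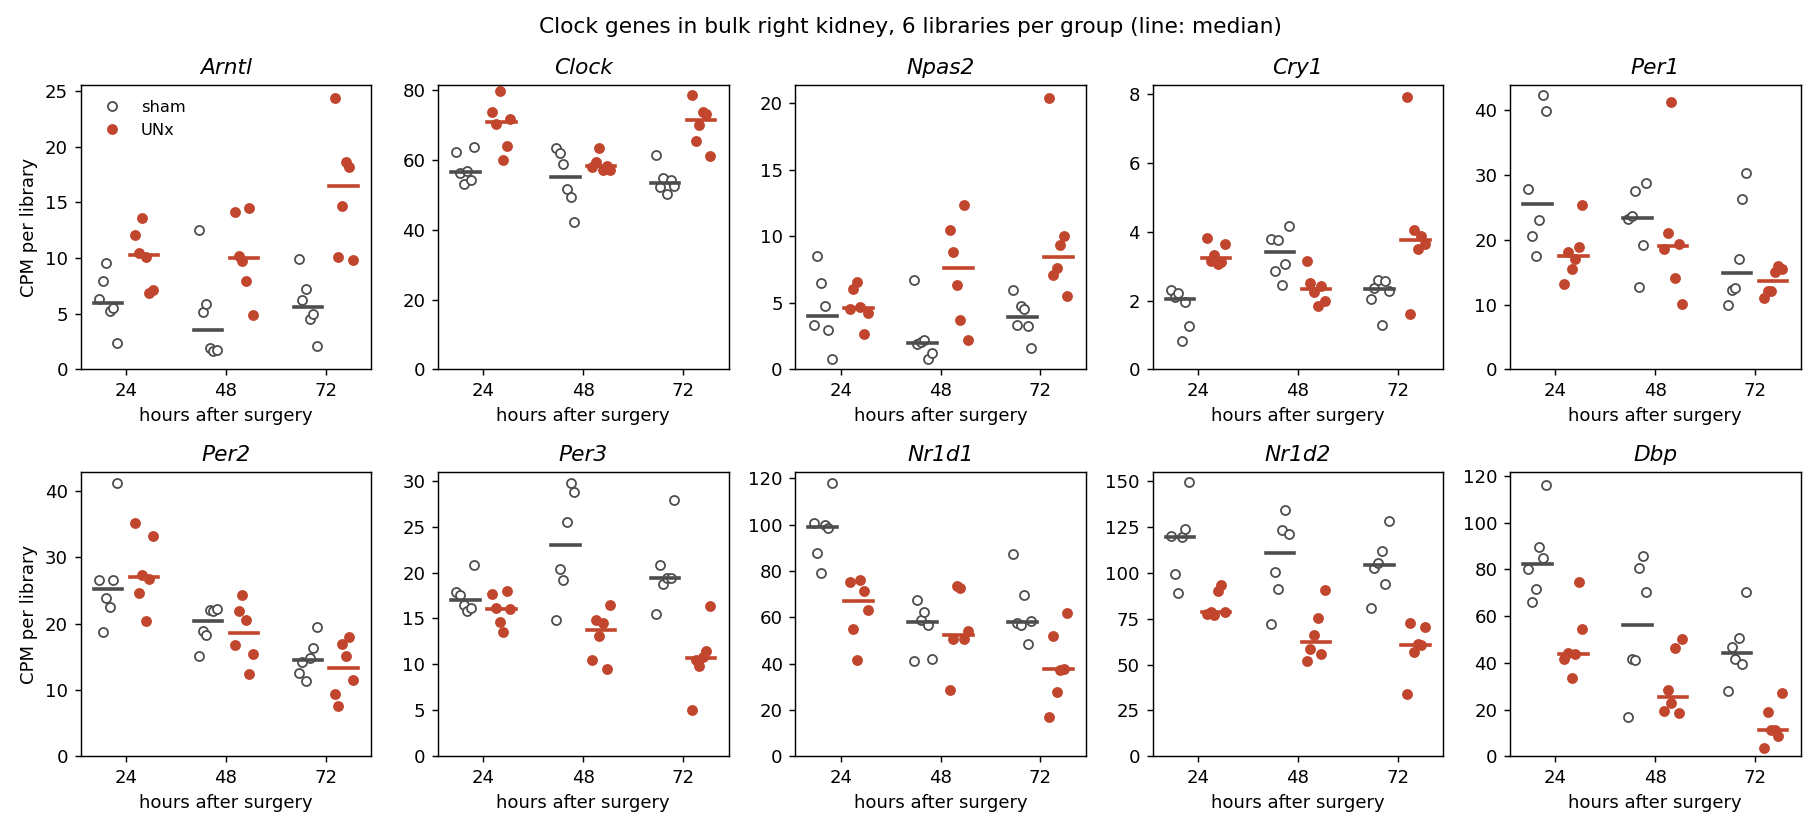
CPM of each clock gene in every bulk library (y axis, linear from 0) by hours after surgery (x axis), open circles for sham, filled for UNx and a line at each median of 6. Arntl and Clock sit higher in UNx at 72 h, while Dbp, Nr1d2 and Per3 sit lower, with Dbp between 3.46 and 26.9 CPM in UNx against 27.8 to 70.2 CPM in sham.

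The median of Dbp, the output factor, was lower in UNx at all 3 times, and the fall passed the test at 24 h and 72 h. Sham libraries held 66.0, 82.5 and 116 CPM (lowest, median, highest) at 24 h, 17.0, 56.0 and 85.5 CPM at 48 h, and 27.8, 44.4 and 70.2 CPM at 72 h. UNx libraries held 33.5, 43.9 and 74.7 CPM at 24 h, 18.6, 25.5 and 50.02 CPM at 48 h, and 3.46, 11.2 and 26.9 CPM at 72 h. The groups were separate only at 72 h, where the highest UNx library (26.9 CPM) came within 1 CPM of the lowest sham (27.8 CPM). Dbp fell by 0.79 on the log2 scale at 24 h (SE 0.167, edgeR adjusted p 0.00325) and by 1.78 at 72 h (SE 0.363, adjusted p 0.0270). At 48 h the estimate was −0.87 (SE 0.354, adjusted p 0.0724). As for Arntl, the 48 h sham replicate 1 stood at the far end, with 17.0 CPM, and without it the estimate was −1.06 (adjusted p 0.0158). Without UNx replicate 6 it was −1.04 (adjusted p 0.0369). The 72 h call of Dbp was lost in 6 of 12 fits that left out 1 library (sham replicate 2, 4 or 6 or UNx replicate 3, 4 or 5).

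Nr1d2, a repressor of Arntl, was the only member called lower at each of the 3 times. Its median went from 120 CPM in sham to 78.6 CPM in UNx at 24 h, from 111 to 62.3 CPM at 48 h and from 104 to 60.8 CPM at 72 h. At 72 h all UNx libraries (34.0 to 72.4 CPM) lay below all shams (80.8 to 128 CPM). It fell by 0.49, 0.71 and 0.82 on the log2 scale (SE 0.101, 0.159 and 0.156), with edgeR adjusted p of 0.00276, 0.00471 and 0.0189, and the 72 h call was lost without sham replicate 4 or UNx replicate 5. Its relative Nr1d1 fell at 24 h, by 0.60 (SE 0.130, adjusted p 0.00372), and there the groups were separate, with 79.0 to 118 CPM in sham and 41.6 to 76.1 CPM in UNx. At 48 h the medians of Nr1d1 were 57.8 and 52.4 CPM and the estimate was −0.01 (adjusted p 0.973). At 72 h they were 58.0 and 37.5 CPM, all 6 UNx libraries lay below the sham mean, and the estimate of −0.70 (SE 0.250) did not pass (adjusted p 0.169).

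The 3 Per genes did not share a pattern. Per3 was at 17.0 CPM (median) in 24 h sham and 16.1 CPM in 24 h UNx, an estimate of −0.11 (edgeR adjusted p 0.333). It then went from 23.0 to 13.8 CPM at 48 h and from 19.4 to 10.7 CPM at 72 h, and fell by 0.82 (SE 0.174, adjusted p 0.00343) and 0.93 (SE 0.212, adjusted p 0.0429). The 72 h call was lost in 9 of 12 fits that left out 1 library and kept without sham replicate 1 or UNx replicate 1 or 6. Per1, which is also switched on by glucocorticoids, was called lower only at 24 h, by 0.65 (SE 0.203, edgeR adjusted p 0.0284), from a median of 25.5 CPM to 17.5 CPM. The call was lost without sham replicate 5 or 6 or UNx replicate 1 or 3. At 72 h, shams of Per1 spread from 9.93 to 30.2 CPM around UNx libraries of 11.0 to 15.9 CPM, and the estimate was −0.42 (adjusted p 0.412). Per2 passed at no time, with estimates of 0.08, −0.11 and −0.19 and adjusted p of 0.742, 0.594 and 0.682.

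Cry1, which holds back the Arntl and Clock pair, moved in opposite directions at 24 h and 48 h. At 24 h all UNx libraries (3.05 to 3.81 CPM) lay above all shams (0.835 to 2.32 CPM), and it rose by 0.91 (SE 0.201, edgeR adjusted p 0.00409). At 48 h the medians were 3.41 CPM in sham and 2.35 CPM in UNx, and it fell by 0.52 (SE 0.168, adjusted p 0.0286), a call lost without sham replicate 1, 3 or 6 or UNx replicate 4 or 6. At 72 h the medians were 2.33 and 3.76 CPM, and the estimate of 0.89 had an SE of 0.293 (adjusted p 0.138). The 72 h UNx group held both a library at 1.62 CPM and one at 7.91 CPM.

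**Figure D2:**
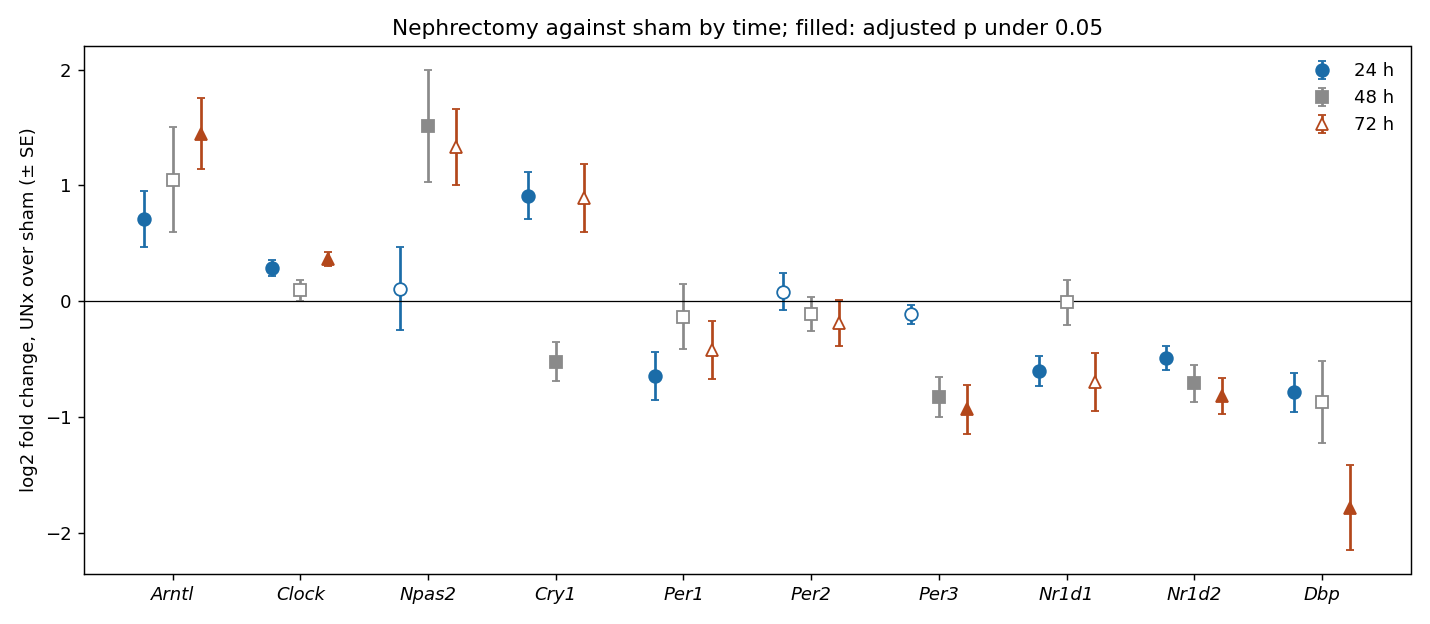
Log2 fold change of UNx over sham (y axis, bars ± SE) for each clock gene (x axis) at 24 h (circles), 48 h (squares) and 72 h (triangles), filled where the edgeR adjusted p was under 0.05. Nr1d2 is filled and below 0 at all 3 times, and Cry1 is filled above 0 at 24 h and below 0 at 48 h.

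By count, 7 of the 10 genes were called at 24 h, where 27.3% of all 14104 tested genes were called. Of these, 3 rose (Arntl, Clock and Cry1), against 14.2% of all genes called higher, and 4 fell (Per1, Nr1d1, Nr1d2 and Dbp), against 13.1% called lower. At 48 h 4 were called, against 32.9% of 14280 genes. Npas2 rose (16.9% of all genes were called higher) and Per3, Cry1 and Nr1d2 fell (16.0% called lower), a share near the background. At 72 h 5 were called, against 1.71% of 14556 genes. Arntl and Clock rose, where 1.21% of all genes were called higher, and Per3, Nr1d2 and Dbp fell, where 0.502% were called lower. The median size of the log2 fold change, sign ignored, was 0.54, 0.62 and 0.85 over the members at 24, 48 and 72 h, and 0.17, 0.23 and 0.10 over all tested genes. Members were chosen with earlier results of these data known, so these counts are a description.

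With the profile score as a covariate none of the 10 genes was called at any time. At 24 h and 48 h the score moved with the groups, standard errors grew, and Dbp was at −0.08 (SE 0.440) and −0.00 (SE 0.635). At 72 h, where the score barely differed, estimates stayed close to those above (Dbp −1.57, Arntl 1.39, Nr1d2 −0.72 and Clock 0.30) with adjusted p of 0.118 to 0.248. Without the 5 UNx libraries of 48 h that stood apart, 1 UNx library was left, none of the 10 was called, and Dbp was at −0.17 and Npas2 at −0.20. That remaining library, UNx replicate 6, held 50.02 CPM of Dbp and 4.93 CPM of Arntl, beside sham medians of 56.0 and 3.54 CPM. The 72 h count rested on single libraries, since 1 member was called without sham replicate 4 or without UNx replicate 5 (Clock in both cases) and 7 were called without UNx replicate 6.

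Whether the effect itself differed between times was tested directly over all 36 libraries. From 24 h to 48 h the effect on Cry1 changed by −1.41 (SE 0.344, edgeR adjusted p 0.00157) and that on Per3 by −0.68 (SE 0.250, adjusted p 0.0312). This was 2 of 10 members, where 37.0% of 15093 genes differed. From 48 h to 72 h the effect on Cry1 changed by 1.41 (SE 0.336, adjusted p 0.00491), the 1 member called, where 14.6% of genes differed. From 24 h to 72 h no member was called in edgeR and 3 had an unadjusted p under 0.05, where 4.15% of genes differed. DESeq2 called 1 there and limma voom 2, Per3 in each and Dbp in voom. Without replicate 2, 3, 4 or 5 of every group the difference of Per3 from 24 h to 48 h did not pass. Dbp was not called in any of these 3 differences in edgeR, although its estimate went from −0.79 at 24 h to −1.78 at 72 h. Between the shams of 48 h and 72 h no member was called in edgeR (2 with an unadjusted p under 0.05), where 0.0% of all genes were called. DESeq2 and limma voom called 0 members there.

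Mice of 1 group also differed from each other in these genes, and several members moved with or against Dbp. The permutation test was not run over all genes. Genes outside the list reached r of 0.758 (Ell3) and −0.784 (Dtx4) with Dbp. For each gene the log2 CPM minus its group mean was set against that of Dbp over the 36 libraries, with a permutation within groups (100000 resamples, two-sided) and adjustment over 9 relations. Arntl went against Dbp with r = −0.859 (rho −0.892, adjusted permutation p 2.2e-05), and within each of the 6 groups r ran from −0.976 to −0.918. Npas2 had r = −0.796 (rho −0.784, adjusted permutation p 2.2e-05), Clock −0.630 (rho −0.634, adjusted permutation p 0.000846) and Cry1 −0.533 (rho −0.499, adjusted permutation p 0.00723). Nr1d2 went with Dbp at r = 0.904 (rho 0.870) and Per3 at 0.883 (rho 0.758), both with an adjusted permutation p of 2.2e-05. That p rests on a raw p of 1e-05, the smallest these permutations can give. The permutations take the libraries of a group as exchangeable, and the replicate number was not entered. For Nr1d1 r was 0.579 (adjusted permutation p 0.00546) while rho was 0.381 (adjusted permutation p 0.0609). Per2 at 0.270 (rho 0.268, adjusted permutation p 0.208) and Per1 at 0.0229 (rho 0.0157, adjusted permutation p 0.890) did not pass. Within the 6 groups, r kept 1 sign for Npas2 (−0.972 to −0.838), Cry1 (−0.802 to −0.106), Nr1d2 (0.663 to 0.983) and Per3 (0.570 to 0.961). It did not for Clock, at −0.947 to 0.643 with 1 group above 0, or for Nr1d1, at −0.452 to 0.944 with 1 group below 0.

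Without the 2 libraries farthest in Dbp, r was −0.861 for Arntl, −0.745 for Npas2, −0.545 for Clock, −0.403 for Cry1, 0.849 for Nr1d2, 0.814 for Per3 and 0.411 for Nr1d1. Within batch 1 (12 libraries) and batch 2 (24 libraries) r was −0.872 and −0.869 for Arntl, −0.779 and −0.863 for Npas2, 0.712 and 0.939 for Nr1d2, and 0.567 and 0.911 for Per3. It was −0.391 and −0.584 for Cry1 and 0.645 and 0.573 for Nr1d1. The relation of Clock was weak in batch 1, at −0.151, and −0.750 in batch 2. For Per1 it was 0.593 in batch 1 and −0.0796 in batch 2, and for Per2 it was 0.447 and 0.247. A sham and a UNx mouse could hold like levels of these genes. The 72 h sham replicate 1 held 27.8 CPM of Dbp and 9.93 CPM of Arntl, and the 72 h UNx replicate 6 held 26.9 and 9.80 CPM. The 72 h UNx replicate 1 stood at the other end, with 3.46 CPM of Dbp, 24.4 CPM of Arntl, 20.4 CPM of Npas2, 7.91 CPM of Cry1 and 34.0 CPM of Nr1d2.

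**Figure D3:**
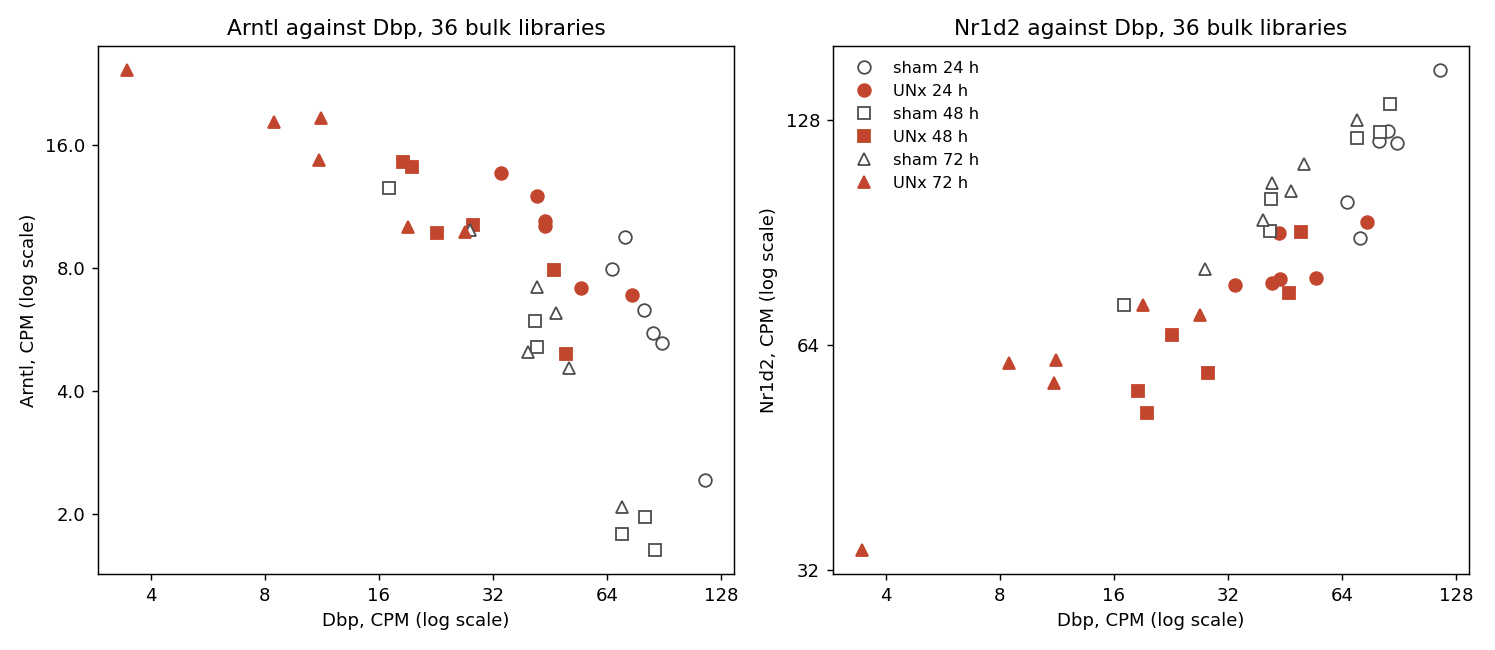
CPM of Arntl (left) and Nr1d2 (right) against CPM of Dbp, both axes on a log scale, 1 point per bulk library, open for sham, filled for UNx, with circles, squares and triangles for 24, 48 and 72 h. Arntl falls as Dbp rises and Nr1d2 rises with it, in sham and UNx libraries alike, with the 72 h UNx libraries at the low end of Dbp.

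Ranked against Dbp were 10514 other genes averaging 2 or more in log2 CPM, with predicted genes and clones without a name passed over. Among them, the pattern most like that of Dbp between mice of a group was that of Ell3 (r = 0.758), Tef (0.740), Jade1 (0.712), Epha1 (0.698) and Txndc16 (0.694), over 36 libraries. Tef codes for a D-box factor of the same family as DBP. The patterns most opposite were those of Dtx4 (r = −0.784), Ppard (−0.783), Ypel2 (−0.779), Arhgap26 (−0.769) and Leo1 (−0.768). Ppard codes for a nuclear receptor for fatty acids. These are ranks taken from the same libraries and carry no test.

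Of 22 further clock genes 21 were tested, and 8 were called at 24 h, 7 at 48 h and 1 at 72 h, where 27.3%, 32.9% and 1.71% of all genes were called. The counts at 24 h and 48 h are near that background. The 1 at 72 h was Tef, which fell by 0.37 (edgeR adjusted p 0.0488). At 24 h 3 rose and 5 fell. Nfil3, which codes for a repressor at D-boxes, rose by 1.48 (adjusted p 0.00585), and Bhlhe41, which codes for a repressor of the Arntl and Clock pair, fell by 0.95 (adjusted p 0.00837). Hlf, from the family of Dbp, fell by 0.41 (adjusted p 0.0153) and Cry2 by 0.29 (adjusted p 0.0429). At 48 h 1 rose and 6 fell, with Rora down by 0.37 (adjusted p 0.00442), Tef by 0.35 (adjusted p 0.0341) and Cry2 by 0.46 (adjusted p 0.0106). The median log2 fold change of these 21 genes was −0.08, −0.16 and −0.12 at 24, 48 and 72 h, beside 0.01, −0.04 and −0.00 over all genes.

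Kidney genes of the clock's and the mineralocorticoid system's daily rhythm gave 5 calls of 15 at 24 h (2 higher, 3 lower), 3 at 48 h (all higher) and 0 at 72 h in edgeR, where 1 had an unadjusted p below 0.05. Against 27.3% and 32.9% of all genes these counts do not stand out at 24 h or 48 h. Scnn1a, which codes for a subunit of the epithelial sodium channel, fell by 0.30 at 24 h (adjusted p 0.00400) and rose by 0.41 at 48 h (adjusted p 0.0113). At 72 h it was at 0.02 (adjusted p 0.920). Of 7 genes of the glucocorticoid response, 0 were called at 24 h (1 with an unadjusted p under 0.05), 2 at 48 h and 0 at 72 h (2 with an unadjusted p under 0.05) in edgeR. Fkbp5, a gene that glucocorticoids switch on, was at 0.36, 0.28 and 0.55 (adjusted p 0.141, 0.384 and 0.299). Some cell type markers were called as well. Their counts were near or below the background of 27.3%, 32.9% and 1.71% of all genes at 24, 48 and 72 h. At 24 h 10 of 51 tested were called (7 higher, 3 lower), with Acta2, which marks smooth muscle, up by 0.96 (adjusted p 0.0104) and Calb1 of the connecting tubule up by 0.67 (adjusted p 0.00137). At 48 h 15 of 54 were called (6 higher, 9 lower), with the fibroblast genes Dcn and Pdgfra at −0.92 (adjusted p 0.00809) and −0.78 (adjusted p 0.0112). Slc22a6, a marker of proximal tubule segment S2, rose by 0.66 at 48 h (edgeR adjusted p 0.00119). The 3 S2 markers had a median log2 fold change of 0.59 there, with 2 called. The 3 markers of S1 and the 3 of S3 had medians of −0.21 and −0.03, with 0 called. At 72 h 1 of 55 was called, the type A intercalated cell marker Kit, which fell by 0.35 (adjusted p 0.0196), and Kit also fell at 24 h and 48 h. The 5 red blood cell genes all had an unadjusted p under 0.05 at 72 h and none was called, with a median log2 fold change of −0.69 and summed CPM of 442 to 1088 in sham and 337 to 535 in UNx. The part of these cell types in the clock results was not tested.

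In the nuclei, levels of several members over all nuclei followed the labelled batch. Genes at large did so too, since deviations from the group mean within a batch correlated at r = 0.806 over 19975 genes. The share of all genes that separated the mice by batch was not counted. Batch 3 held the first sham and the first UNx mouse and batch 4 the second of each, with 16500 nuclei in all and a median of 8297 UMIs (unique molecular identifiers, which count captured transcripts) per nucleus. Dbp over all nuclei was at 32.1 CPM in sham and 29.4 CPM in UNx in batch 3, and at 49.7 and 45.9 CPM in batch 4. Per2 was at 32.8 and 40.9 CPM in batch 3 and at 56.3 and 79.5 CPM in batch 4. For both genes the 2 batch 4 mice lay above both batch 3 mice, and the mean of batch 4 over that of batch 3 was 1.55 for Dbp and 1.84 for Per2. Npas2, Clock and Nr1d2 were lower in both batch 4 mice, with ratios of 0.734, 0.893 and 0.821. Within both batches Cry1 was higher in UNx, at 4.13 and 6.48 CPM in batch 3 and at 4.69 and 5.54 CPM in batch 4. Arntl was lower in UNx within both batches, at 14.4 and 12.4 CPM in batch 3 and at 14.6 and 10.3 CPM in batch 4.

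**Figure D4:**
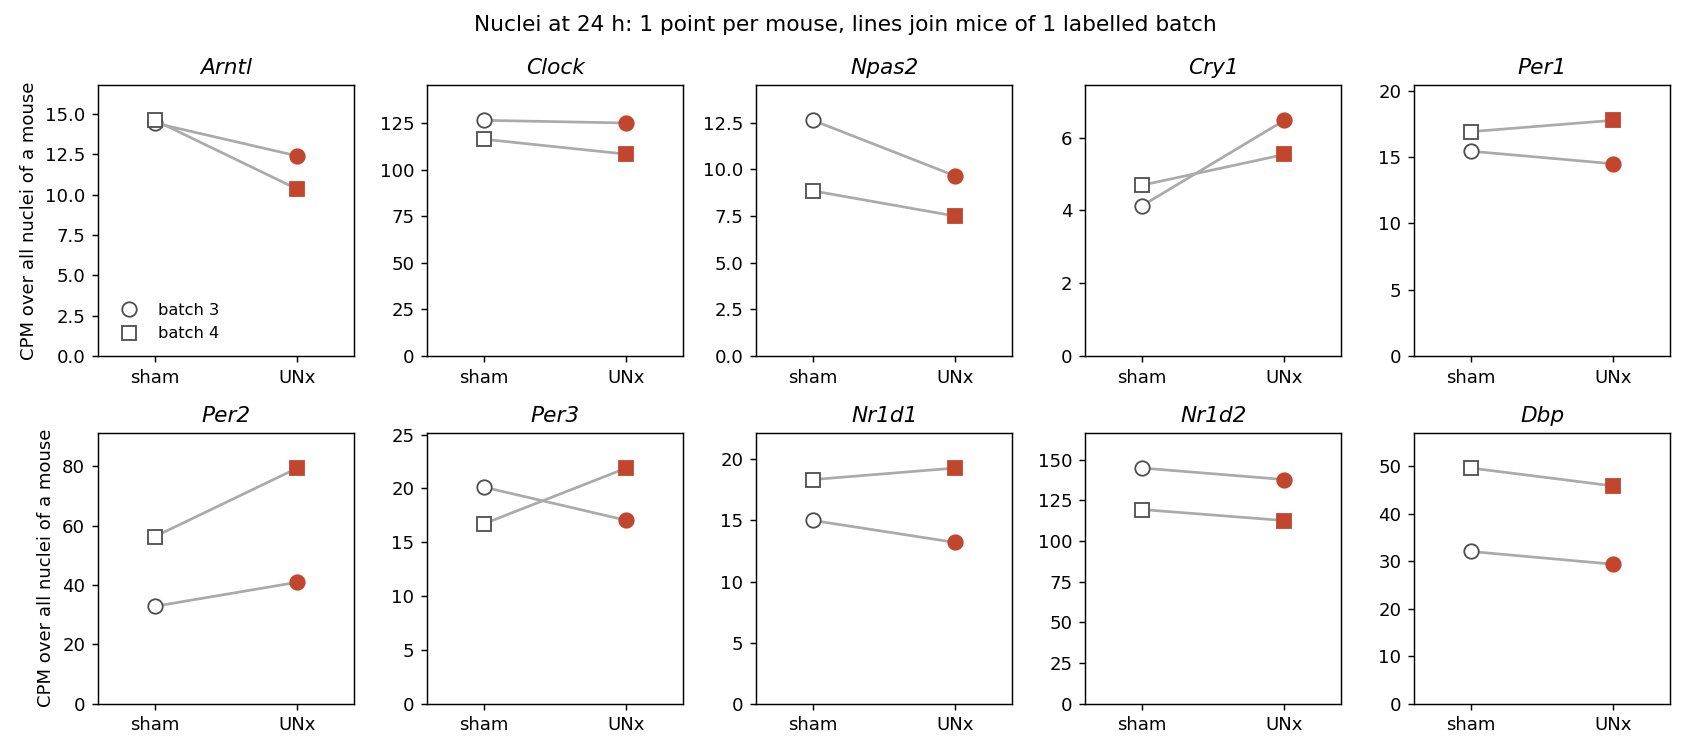
CPM of each clock gene summed over all nuclei of a mouse (y axis, linear from 0) in sham and UNx (x axis) at 24 h, circles for batch 3, squares for batch 4 and lines joining the mice of 1 batch. Dbp and Per2 stand higher in both batch 4 mice, and the UNx mouse stands above its sham in both batches for Per2 and Cry1.

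No member was called over all nuclei in edgeR, and none had an unadjusted p under 0.05. Among all 19975 genes tested 0.0% were called, the unadjusted p was under 0.05 for 360, and DESeq2 called 25. The log2 fold change was −0.04 for Dbp (SE 0.420), −0.29 for Arntl (SE 0.204), −0.01 for Nr1d2 (SE 0.140), 0.51 for Cry1 (SE 0.284) and 0.52 for Per2 (SE 0.526). These estimates left the labelled batch out of the fit. With the batch as a block, edgeR called 207 of the 19975 genes, and 3091 fell below 0.05 before adjustment. Still no member passed, but Per2 (edgeR p 0.00270) and Cry1 (edgeR p 0.0311) fell below 0.05 before adjustment. For Per2 the SE shrank to 0.0995 at an estimate of 0.48 (adjusted p 0.0934). Cry1 was at 0.52 in the block fit (SE 0.188, adjusted p 0.265). Nuclei hold RNA that is still being made or kept in the nucleus, and these 4 mice were not those of the bulk libraries, so the values are not a repeat of the bulk measurement.

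Cell classes were those of the authors' deposited annotation, of which 23 held at least 10 nuclei in every mouse. The markers matched many of the names but not all. Markers of the proximal tubule segments S1, S2 and S3 were highest in PTS1, PTS2 and PTS3, thick limb markers in CTAL2 and MTAL, distal convoluted tubule markers in DCT, connecting tubule markers in CNT and principal cell markers in CPC. Intercalated cell markers of types A and B were highest in ICA and ICB, endothelial markers in EC1 and EC2, and fibroblast markers in the classes named Per and Fib. The class named Per is a cell class and has no relation to the Per genes. Thin limb markers were highest in MPC, ahead of DTL1. Podocyte markers were highest in PEC, mural and juxtaglomerular markers in Fib, and immune markers in DTL1, ahead of PTS3. The classes named Podo, JG cell, Macro, B cell and T cell fell below 10 nuclei in some mouse and were not used. Classes are written by the authors' names, and levels are CPM of all UMIs of a class in a mouse, averaged over the 4 mice.

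Arntl averaged 59.5 CPM in EC2 (34.5 to 86.3 over the 4 mice), 46.5 CPM in Uro, 44.4 CPM in MPC, 36.2 CPM in CNT and 33.9 CPM in Fib, but 4.97 to 5.33 CPM in the 3 proximal tubule classes and 5.01 to 5.66 CPM in MTAL, CTAL1 and CTAL2. In each mouse 12 to 15 of the 20 other classes lay above all 3 proximal tubule classes. No UMI of Arntl or Npas2 was found in the 50 nuclei of MD, which allows up to 9.22 CPM of each. Npas2 was highest in the class named Per (63.4 CPM, 6.67 to 106 over the 4 mice), ATL (58.1 CPM, 26.3 to 98.0), Uro (42.2 CPM) and Fib (41.9 CPM). It was at 2.50 CPM in EC1 and 2.48 CPM in EC2, where Arntl was at 18.8 and 59.5 CPM. Clock ran from 93.3 CPM in CTAL1 to 183 CPM in the class named Per.

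Dbp and Nr1d2 were lowest in the same class, MPC, with 21.3 and 61.0 CPM. Their highest means were both in DTL2, with 64.0 CPM (37.2 to 130) and 208 CPM (143 to 252). For Dbp that place rests on the second sham mouse, at 130 CPM from 11 nuclei. The other mice were at 37.2 to 47.9 CPM, beside means of 50.3 CPM in DTL1 and 49.2 CPM in EC1. DTL2 held 43 UMIs of Dbp over 127 nuclei. The 3 proximal tubule classes had 38.1 to 45.4 CPM of Dbp and 130 to 145 CPM of Nr1d2. Nr1d1 ran from 10.1 CPM in DCT to 27.1 CPM in EC1. Across the 23 class means, which share mice and libraries, r was −0.636 between Arntl and Nr1d2 and −0.599 between Arntl and Dbp, a description of 23 points.

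Per1 was lowest in PTS2 and PTS3, with 10.3 and 10.6 CPM, followed by CNT with 12.1 CPM and PTS1 with 13.3 CPM, and highest in DTL1 (38.8 CPM, 28.0 to 65.3). In each mouse 12 to 18 of the 20 other classes lay above all 3 proximal tubule classes. Per2 did not follow it, since PTS1 and PTS2 held 69.4 and 68.4 CPM against 27.4 CPM in MPC and 27.9 CPM in EC2. Per3 was at 5.23 CPM in DCT (3.38 to 8.69) and 8.02 CPM in ICB, and at 62.5 CPM in DTL1, where mice ran from 2.36 to 132 CPM. Cry1 was lowest in PTS2 (2.02 CPM) and highest in ATL (14.4 CPM). Ranges over the 4 mice overlapped between all 22 pairs of neighbours in each gene's order, apart from 1 pair for Npas2. Classes farther apart in an order were not compared in this way. For Dbp even the highest and lowest class overlapped, with 37.2 to 130 CPM in DTL2 and 8.66 to 37.8 CPM in MPC. For Nr1d2 the same 2 classes did not, with 143 to 252 CPM and 37.1 to 76.6 CPM.

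**Figure D5:**
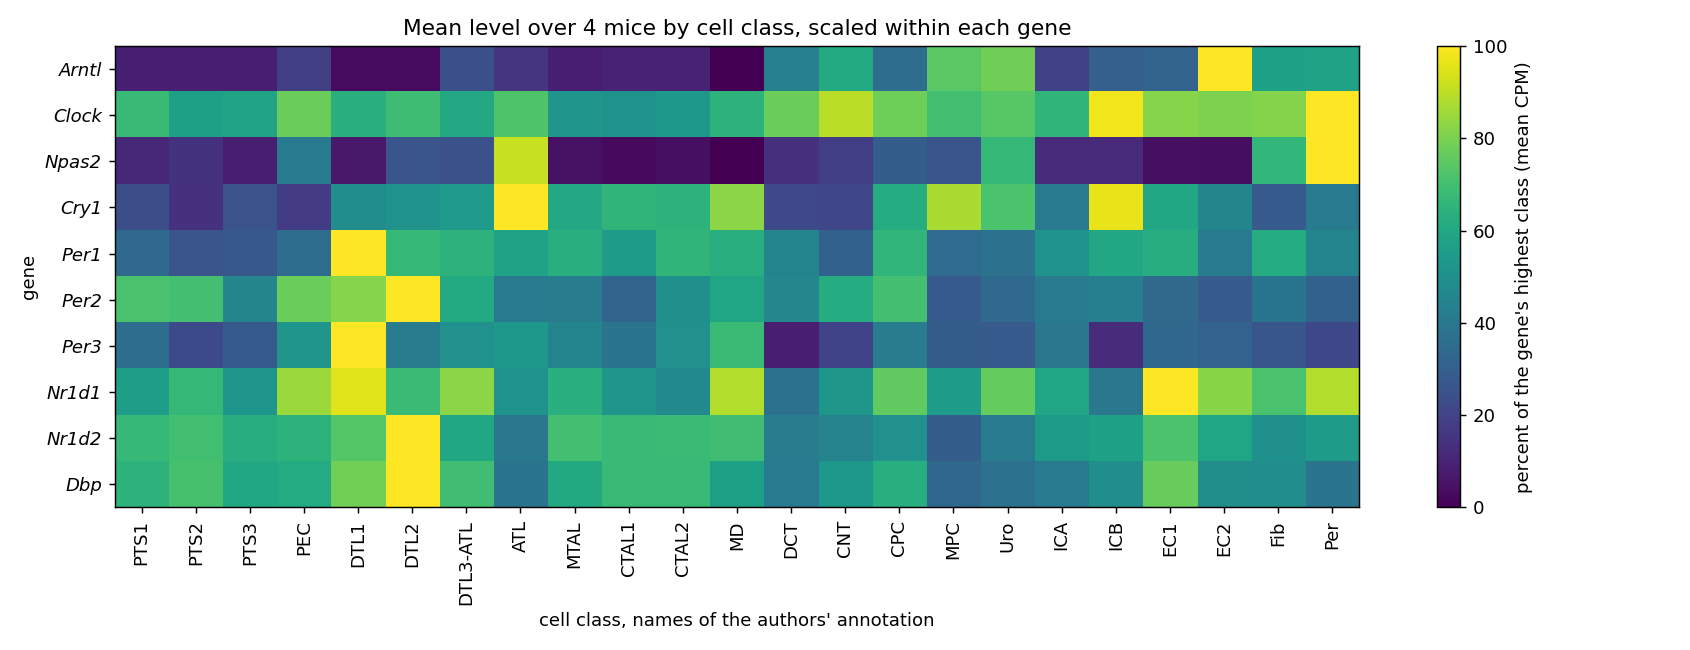
Mean CPM over 4 mice of each clock gene (rows) in 23 cell classes (columns, authors' names), as percent of the class where that gene was highest, which is 100 in each row. Arntl is brightest in EC2 and dark in the proximal tubule and thick limb classes, and Dbp and Nr1d2 are both brightest in DTL2. For Dbp that rests on the second sham mouse, at 130 CPM from 11 nuclei.

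Between UNx and sham no member was called in any of the 23 classes in edgeR, where 0.0% of all genes were called in each. Of 170 tests of a member in a class, 2 had an unadjusted p under 0.05, and the lowest adjusted p was 0.999. Those 2, named after their values were seen, were Npas2 in CPC (9.64 and 7.53 CPM in sham, 42.5 and 14.8 CPM in UNx, log2 fold change 1.71) and Dbp in DTL3-ATL (47.2 and 82.6 CPM in sham, 22.3 and 24.8 CPM in UNx, log2 fold change −1.37). Dbp could be tested in 20 classes and its log2 fold change was below 0 in 14. Per2 could be tested in 21 and was above 0 in 15. Npas2 was below 0 in 10 of 12, Nr1d2 was below 0 in 16 of 23 and Cry1 was above 0 in 6 of 8. The classes come from the same 4 mice, so these counts of signs are a description. In PTS2 the level of Per2 was 33.7 CPM in sham and 57.0 CPM in UNx in batch 3, and 64.6 and 118 CPM in batch 4. With the labelled batch as a block Per2 was called in that class, with a log2 fold change of 0.83 (SE 0.151, edgeR adjusted p 0.0142), where 3.03% of all genes were called. Without the block the estimate was 0.85 (SE 0.512). The adjustment was over the genes of a class and not over classes. In PTS1 and PTS3 the UNx mouse also held more Per2 than the sham mouse of its batch. Levels were 50.4 against 42.9 CPM and 111 against 72.8 CPM in PTS1. They were 36.7 against 21.7 CPM and 71.0 against 48.0 CPM in PTS3. This was not particular to the proximal tubule. It held in both batches in CTAL1, CTAL2, DCT, DTL1, EC2, Fib, MD, Uro and the class named Per, and over all nuclei. In ATL, DTL3-ATL, ICA and PEC the UNx mouse held less Per2 in both batches.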

How the data were processed

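The bulk table holds estimated counts per gene, not normalized, as deposited by the authors, of which 34.1% are not whole numbers. For it the submitters' processing notes list Salmon 1.5.0, FastQC 0.11.8, GRCm39 and R 4.10, with no settings, and per the labels the kit was stranded and selected polyadenylated RNA. The nucleus table holds estimated UMI counts deposited by the authors, with 13.9% of values above 0 not whole, and for it the notes list alevin, Seurat and mm10. The lowest UMI total of a nucleus was 1755. The sources used here do not give filters on nuclei or doublet removal, and doublets were not called. The nucleus libraries had 18 barcodes in common. Cell classes were taken from the annotation the authors deposited.

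Counts of all genes were rounded and went through edgeR 4.0.16 under R 4.3.3, by its two-sided quasi-likelihood test after filterByExpr and TMM scaling. Calls are at an adjusted p (Benjamini-Hochberg) under 0.05. UNx and sham were compared within the 12 libraries of a time, and differences between times over all 36. The standard error was taken as the size of the log2 fold change over the root of F. Nucleus counts were summed per mouse, and per mouse and class. Symbols of bulk genes came from GENCODE M21 (28340 of 28467 matched). The fits were tested on simulated data. Groups and replicate numbers came from the sample titles, and the labels give each sample a mouse of its own.

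All 10 members are described. Of the other clock genes those called at 72 h are named, and the 5 genes most like Dbp and the 5 most opposite. Nfil3, Bhlhe41, Hlf, Cry2, Rora, Scnn1a, Fkbp5, Acta2, Calb1, Dcn, Pdgfra, Slc22a6 and Kit were named after their values were seen. The members and lists were chosen with earlier results of these data known. Alternatives were DESeq2 1.42.0 (size factors and Wald test), limma voom 3.58.1 with quality weights, no filter, no mitochondrially encoded genes, all libraries in 1 fit, the profile score, the replicate block, the other form of the annotation and each library left out. The nucleus mice pair by labelled batch, and deviations from the group mean within a batch correlated at r = 0.806 over 19975 genes.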

Additional observations from a re-analysis of the deposited data

Results flagged for a closer look

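The effect of nephrectomy on Cry1 differed between times, by −1.41 on the log2 scale from 24 h to 48 h (edgeR adjusted p 0.00157) and by 1.41 from 48 h to 72 h (adjusted p 0.00491). That on Per3 differed by −0.68 from 24 h to 48 h (adjusted p 0.0312). Between 24 h and 48 h, time and labelled batch cannot be told apart. At 48 h, UNx replicates 1 to 5 also stood apart from their shams in the profile score and the mitochondrial share. With the profile score as a covariate none of these differences was called.

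In 5 of 60 sets of 6 libraries (a member in a group), 1 library stood far from the other 5, past the 95% limit of 0.625 for the gap as a share of the range, and chance gives about 1 in 20. Npas2 held 20.4 CPM in the 72 h UNx replicate 1, with 10.0 CPM in the next, and 6.75 CPM in the 48 h sham replicate 1, with 2.21 CPM in the next. The 48 h UNx replicate 3 held 41.2 CPM of Per1, with 21.1 CPM in the next, and 63.4 CPM of Clock, with 59.3 CPM in the next. The 24 h sham replicate 6 held 41.2 CPM of Per2, with 26.6 CPM in the next.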

How the results depend on the processing

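With the profile score as a covariate 0 members were called at 24, 48 and 72 h, and 0 in the differences from 24 h to 48 h and from 48 h to 72 h. Estimates then changed sign for Arntl (−0.46), Npas2 (−0.78) and Per1 (0.28) at 24 h, and for Arntl (−0.21), Clock (−0.0055) and Npas2 (−0.38) at 48 h. Without the 5 UNx libraries of 48 h that stood apart 0 members were called, with Npas2 at −0.20 and the 1 UNx library left was assumed to vary like the shams. In 1 fit of all 36 libraries 4 were called at 24 h. Leaving out 1 library gave 5 to 7 calls at 24 h, 2 to 5 at 48 h (2 without sham replicate 3 or 6) and 1 to 7 at 72 h. At 72 h 3 or fewer were called without sham replicate 2, 3, 4, 5 or 6 or UNx replicate 3, 4 or 5. Leaving out 1 replicate number from every group gave 1 to 4 calls in the difference from 24 h to 48 h, 1 to 2 from 48 h to 72 h and 0 to 1 from 24 h to 72 h. In these differences limma voom gave 3 from 48 h to 72 h and 2 from 24 h to 72 h, and DESeq2 gave 1 from 24 h to 72 h.

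Nr1d1 at 48 h was close to 0 throughout, at 0.0122 with DESeq2 size factors, 0.0111 in the DESeq2 test, 0.0108 without mitochondrially encoded genes and 0.00975 in 1 fit of all libraries, and at −0.11 to 0.12 with 1 library left out. With 1 library left out Npas2 at 24 h ran from −0.11 to 0.39 and Per1 at 48 h from −0.45 to 0.0378. Over all nuclei, leaving out 1 mouse moved Dbp from −0.52 to 0.41, Per2 from −0.17 to 1.06, Per3 from −0.13 to 0.43, Per1 from −0.19 to 0.30, Nr1d1 from −0.37 to 0.38 and Nr1d2 from −0.0677 to 0.0654. The relation of Per1 with Dbp was −0.0182 without the 2 libraries farthest in Dbp. The cause was not tested in these cases.

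Deviations from the group mean of same-numbered sham and UNx libraries of a time correlated at −0.285 to 0.135 over all genes. The number was therefore not taken as a pairing. Over the 10 members alone these correlations were 0.307 to 0.845 at 24 h (6 of 6 above 0), −0.954 to 0.847 at 48 h and −0.214 to 0.716 at 72 h. In every group, replicate 6 deviated upward in Dbp, by 0.211 to 1.27 in log2 CPM, and downward in Arntl, at −1.30 to −0.439. Replicate 1 deviated the other way in both genes in every group. The part of the replicate number in the relations with Dbp was not tested. With the replicate block 7, 6 and 6 members were called at 24, 48 and 72 h, and 3, 1 and 1 in the differences. In the nuclei the block gave 1 call in a class, Per2 in PTS2, and changed no other call of a member. In the other form of the annotation 2 classes could be tested and 0 members were called.

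Members with few counts were limited by depth, with Cry1 at 0.83 to 7.91 CPM in bulk and 881 UMIs over all nuclei. With 2 mice per group in the nuclei the smallest exact two-sided permutation p is 0.333.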
